A study of Mus musculus with 6 samples.

Results

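Glycolysis and the response to low oxygen were followed through 33 genes in liver macrophage preparations of wild-type (WT) and knockout (KO) mice. The genes were taken by name: 21 act in glucose uptake, glycolysis or the fate of pyruvate, and 12 belong to the hypoxia-inducible factor (HIF) pathway or are induced by it. For each gene the transcript of highest mean over the 6 libraries was used. All 33 were among the 23394 genes matched in the data and among the 15619 kept by a filter on low values, so none was lost to that filter. The choice by name used no measured value, although earlier results of these data were known when it was made.

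The study sequenced polyadenylated RNA of liver cells that bound antibody to F4/80, a surface antigen of mouse macrophages, and were held on magnetic columns. Every mouse was a male C57BL/6 animal, 3 months old and fed normal chow, and had received intraperitoneal carbon tetrachloride (CCl4), a hepatotoxin that leads to fibrosis when given repeatedly. There were 3 WT and 3 KO libraries, and genotype was the only label that set the groups apart. The labels name neither the deleted gene nor the cells in which it is deleted, the labels give no dose or number of injections, and every group analysed here received CCl4. Since no label ties a library to its own animal, the p-values reflect only how these samples vary, which may be technical.

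With 1 transcript per gene the libraries held 10790842 to 22157238 reads, and 1 read was worth 0.562 to 1.49 normalised counts. Mitochondrially encoded transcripts took 6.19% to 27.5% of the reads. Macrophage and Kupffer cell markers were abundant in all 6 libraries, with summed normalised counts of 99297 to 194068 in WT and 90626 to 107570.0 in KO, and Adgre1, which encodes F4/80, had 6208 ± 1613 (SD, n = 3) in WT and 5254 ± 1233 (SD, n = 3) in KO. Markers of other liver cells were present too. The summed counts of 18 hepatocyte markers were 101579, 131045 and 40473 in the WT libraries and 142853, 184578 and 266367 in the KO libraries, and those of 15 endothelial markers were 45159, 70887 and 37735 against 78424, 162311 and 125339. Of these, 6 hepatocyte and 5 endothelial markers passed the test as higher in KO, as did 1 of 14 stellate cell and 1 of 7 cholangiocyte markers, where 2.09% of all genes did. None of 7 erythroid, 12 neutrophil, 11 lymphocyte or 15 macrophage markers passed. Of the 15 macrophage markers 10 had estimates below 0 and 5 above. Their summed counts averaged 151425 in WT and 99375 in KO, and the groups overlapped. In such bulk samples, fewer cells of a type and less RNA per cell cannot be told apart.

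Glycolysis splits glucose into pyruvate in the cytosol and yields ATP without oxygen. Macrophages raise it when they are activated by microbial products, and lactate dehydrogenase then regenerates the NAD+ that the pathway consumes. When oxygen is short, prolyl hydroxylases no longer mark the HIF alpha subunits for destruction through the VHL ubiquitin ligase. HIF then binds a short motif near its targets, which include most glycolytic enzymes and the hydroxylases themselves.

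The letters that HIF recognises were looked for in the 250 bases before the RefSeq start of each gene (GRCm38.p6), as ACGTG or GCGTG on either strand, read as CACGT or CACGC on the other. CACGTG holds a match on both strands. A match was present in 27 of the 31 members with an entry, or 87.1%, and in 12679 of all 32851 promoters in the table, or 38.6%. The 2 percentages are not like for like. Each member has 1 window, that nearest its kept transcript, while the table holds every promoter of 27025 genes, whether expressed here or not. For Eno1 and Gapdh the RefSeq start lay 6262 and 770 bases from the start of the kept transcript. The matched members without it were Gpi1, Tpi1, Pkm and Vhl. A match is a description of letters and not a measured binding site. The promoters of 4 genes are shown, those with an entry among the 5 members of smallest p between KO and WT. Ndrg1 had no entry. By estimate Pfkfb3 and Pfkfb4 were lower in KO and Adm and Egln3 higher, and none of the 4 passed the adjusted test. Their groups did not overlap, which held for 22.9% of all genes and is likely in genes picked by small p. Capitals mark the matches, and each sequence runs 5′ to 3′ on the strand of its gene. Pfkfb3 lies at chr2:11502091-11502340 on the minus strand, Pfkfb4 at chr9:108991652-108991901 on the plus strand, Adm at chr7:110627407-110627656 on the plus strand and Egln3 at chr12:54203875-54204124 on the minus strand.
Pfkfb3: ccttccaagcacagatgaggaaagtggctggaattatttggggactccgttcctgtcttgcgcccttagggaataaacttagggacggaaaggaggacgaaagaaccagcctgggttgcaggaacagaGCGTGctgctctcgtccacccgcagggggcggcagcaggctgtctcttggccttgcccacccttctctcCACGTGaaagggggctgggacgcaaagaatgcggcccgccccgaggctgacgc
Pfkfb4: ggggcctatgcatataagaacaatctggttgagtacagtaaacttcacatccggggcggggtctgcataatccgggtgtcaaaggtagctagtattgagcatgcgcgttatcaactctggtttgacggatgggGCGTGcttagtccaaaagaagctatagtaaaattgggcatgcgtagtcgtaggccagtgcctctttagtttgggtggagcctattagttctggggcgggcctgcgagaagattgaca
Adm: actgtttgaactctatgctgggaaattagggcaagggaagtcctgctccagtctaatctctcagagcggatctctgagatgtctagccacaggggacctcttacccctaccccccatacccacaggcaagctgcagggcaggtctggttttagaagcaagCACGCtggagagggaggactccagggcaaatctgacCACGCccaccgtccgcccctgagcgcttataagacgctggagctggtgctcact
Egln3: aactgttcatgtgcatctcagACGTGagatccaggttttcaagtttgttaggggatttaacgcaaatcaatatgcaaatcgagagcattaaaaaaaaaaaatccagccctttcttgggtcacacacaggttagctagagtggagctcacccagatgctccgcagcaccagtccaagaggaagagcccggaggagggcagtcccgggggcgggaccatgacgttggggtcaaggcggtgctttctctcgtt
The Pfkfb3 window held 3 matches, of which a pair forms the palindrome CACGTG, and the Adm window held 2. The windows of Pfkfb4 and Egln3 held 1 each. All 4 genes shown, lower or higher in KO by estimate, carried the motif, as did 87.1% of the members with an entry.

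Between KO and WT, none of the 33 genes passed the test, which was limma on log2(normalised count + 1) with Benjamini-Hochberg adjustment over all 15619 genes at a threshold of 0.05. Over all genes the same test called 381, or 2.44%, with 2.09% higher and 0.352% lower in KO. Without adjustment, 8 of the 33 genes had a p under 0.05, against 18% of all genes. edgeR's quasi-likelihood test called 0 of the 33, against 1.81% of all genes. DESeq2, which called 9.21% of all genes, called 3 of the 33: Pfkfb3 as lower, and Adm and Ndrg1 as higher. The log2 changes of the 33 genes ran from -0.57 to 1.33 with a median of 0.12, and 22 were above 0. The count was 21 with TMM factors, where Slc16a3 turned, and 21 with edgeR, where Ankrd37 turned. With 1 library left out it ran from 18, without WT replicate 3, to 24, without KO replicate 2. Over all tested genes the median was 0.05 and 54.2% were above 0. The 95% interval of the change, not adjusted for the number of genes, lay within 1 log2 unit of 0 for 25 of the 33 genes. Since the spread between these libraries may be technical, the intervals need not bound a difference between genotypes. In data simulated for this comparison, the test found 22% of genes changed by 1 log2 unit and 74% of those changed by 2.

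In 10 of the 33 genes the values of the groups did not overlap, against 22.9% of all genes. The KO libraries lay above the WT libraries for 7, Slc2a1, Pfkm, Pdk1, Egln3, Adm, Ndrg1 and P4ha2, where 13.7% of all genes did. They lay below for 3, Pfkfb3, Pfkfb4 and Gapdh, where 9.25% of all genes did. For Gapdh, KO replicate 2 and WT replicate 1 differed by less than 1 read. The plot of log2 values by library shows each of the 33 genes relative to its WT mean.

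**Figure D1:**
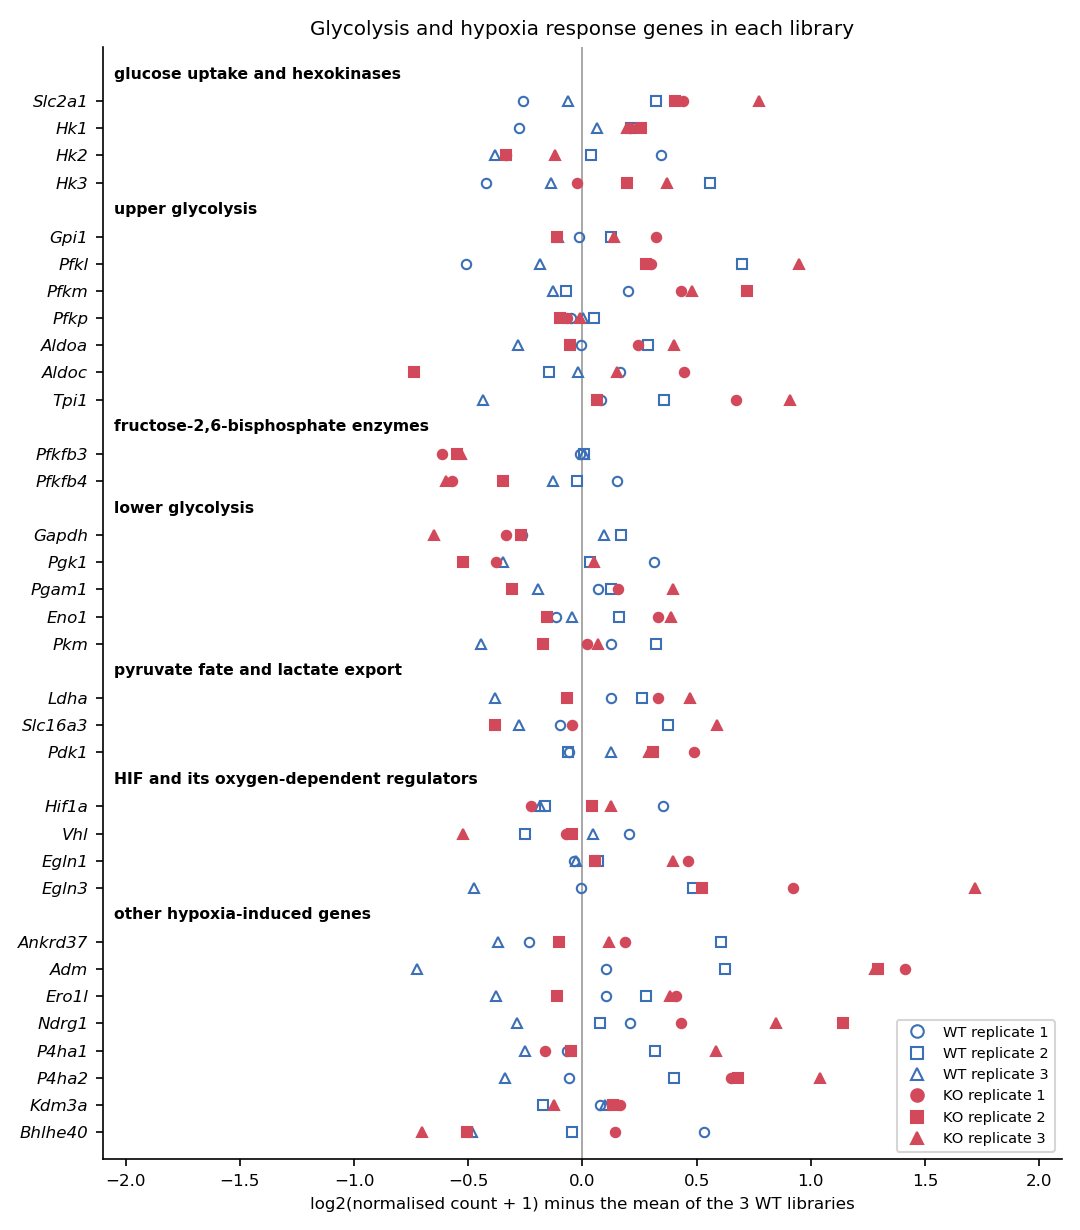
Values of the 33 genes in each of the 6 libraries as log2(normalised count + 1) minus the WT mean of the gene, with genes grouped by role. The WT values of every gene lie on both sides of that mean, since it is their own. Pfkfb3 and Pfkfb4 are below their WT mean in all 3 KO libraries, and Adm and Ndrg1 are above it. Other genes, among them Slc2a1, Hk1 and Hk2, also keep a single sign in all 3 KO libraries.

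Glucose enters macrophages mainly through the facilitative transporter GLUT1, encoded by Slc2a1, and hexokinases then trap it as glucose phosphate. Slc2a1 had 784, 1173 and 899 normalised counts in the WT libraries and 1275, 1243 and 1606 in the KO libraries. Every KO library lay above every WT library, although the gap between WT replicate 2 and KO replicate 2 was small. The log2 change was 0.54 ± 0.20 (SE), with an adjusted p of 0.197. The hexokinase genes had smaller estimates, at 0.22 for Hk1, -0.26 for Hk2 and 0.18 for Hk3, and their groups overlapped.

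Upper glycolysis turns glucose phosphate into triose phosphates, and phosphofructokinase makes the committed step. Its muscle-type subunit Pfkm had 175, 145 and 139 normalised counts in WT and 206, 251 and 213 in KO, a log2 change of 0.54 ± 0.24 (SE) with an adjusted p of 0.268. The liver-type and platelet-type subunits were more abundant per kilobase, at means of 496 and 286 normalised counts per kilobase against 65.4 for Pfkm. Pfkl had an estimate of 0.51 with a 95% interval of -0.20 to 1.22, and Pfkp had -0.06 with an interval of -0.40 to 0.28. Both of these overlapped between the groups. The aldolase gene Aldoa was the most abundant of the 33 genes per kilobase, at a mean of 6134 normalised counts per kilobase over the 6 libraries. It had 8735, 10686 and 7205 normalised counts in WT and 10363, 8445 and 11574 in KO. The groups were interleaved, and the log2 change was 0.20 ± 0.24 (SE) with an adjusted p of 0.727. The triose phosphate isomerase gene Tpi1 had 2412, 2925 and 1686 in WT against 3637, 2388 and 4288 in KO. KO replicate 2 lay within the WT range, and the log2 change was 0.55 ± 0.27 (SE) with an adjusted p of 0.337. Aldoc, the aldolase of brain, had 126 ± 14.0 (SD, n = 3) in WT and 129 ± 49.0 (SD, n = 3) in KO, and Gpi1, glucose phosphate isomerase, had an estimate of 0.12.

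The PFKFB enzymes make and remove the sugar bisphosphate that is the strongest activator of phosphofructokinase. PFKFB3 has a kinase activity far above its phosphatase activity and so favours glycolysis, and both Pfkfb3 and Pfkfb4 are known HIF targets. Pfkfb3 had 1185, 1200.2 and 1198 normalised counts in the WT libraries and 779, 816 and 825 in the KO libraries. The replicates were close, with 1194 ± 8.4 (SD, n = 3) in WT and 807 ± 24.4 (SD, n = 3) in KO, and the groups were well apart. The log2 change was -0.57 ± 0.15 (SE), with an adjusted p of 0.0894 by limma, the smallest of the 33 genes, 0.0697 by edgeR and 0.00826 by DESeq2. Over all alternative settings the adjusted p ran from 0.00826 to 0.273, and the estimate was below 0 in each.

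Pfkfb4 had 1153, 1022 and 948 in WT and 699, 816 and 685 in KO. All KO libraries lay below all WT libraries, with a log2 change of -0.50 ± 0.17 (SE) and an adjusted p of 0.155. The summed macrophage markers averaged lower in KO too, with overlapping groups. Their part in the values of Pfkfb3 and Pfkfb4 was not tested. The other PFKFB genes were low: of the summed normalised counts per kilobase of the 4 PFKFB genes, Pfkfb3 and Pfkfb4 together held most in every library, with 41.6% and 51.8% in WT and 37.8% and 49.1% in KO. The liver isozyme Pfkfb1 took 2.01% ± 1.03 (SD, n = 3) of the sum in WT and 8.03% ± 4.26 (SD, n = 3) in KO.

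**Figure D2:**
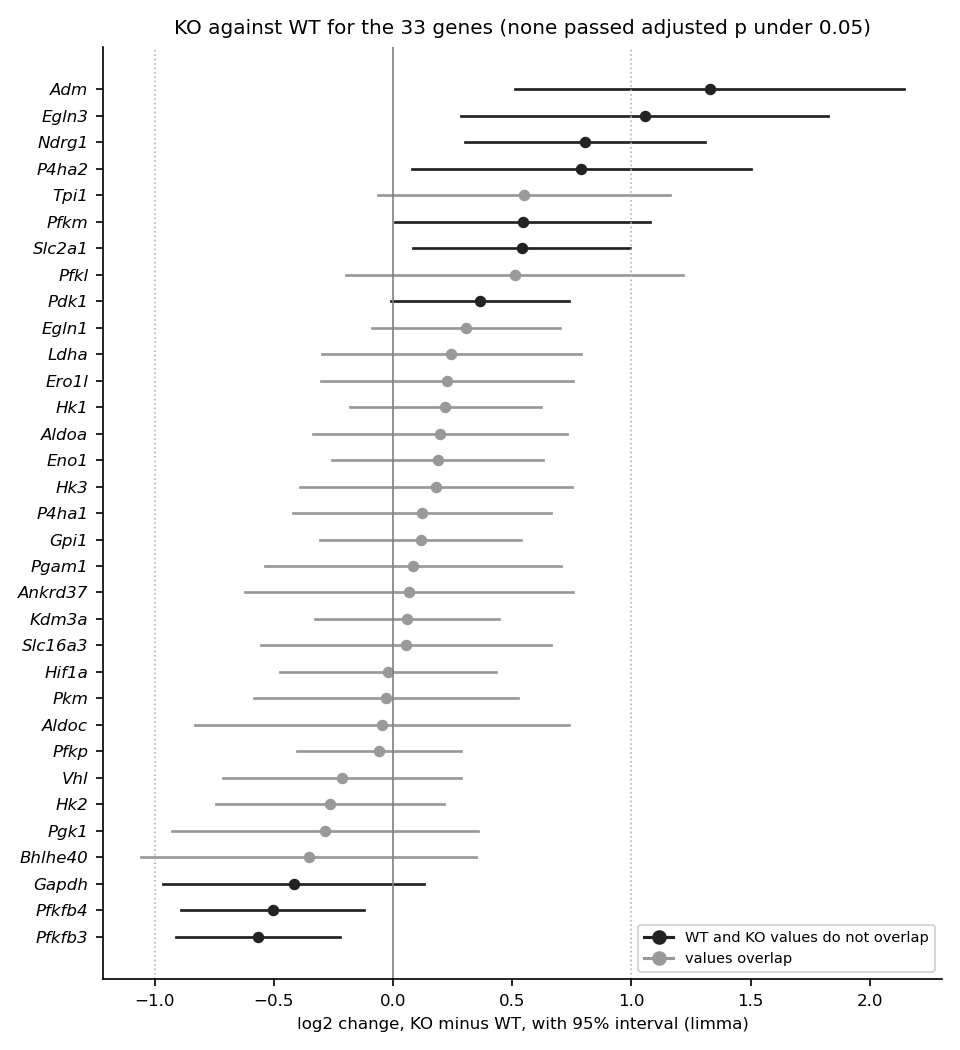
Log2 change of KO against WT for each of the 33 genes with its 95% interval from limma, ordered by size, where positive values are higher in KO and dark marks are genes whose groups of libraries do not overlap. The intervals of Pfkfb3 and Pfkfb4 lie below 0 and those of Slc2a1, Pfkm, Egln3, Adm, Ndrg1 and P4ha2 lie above 0, and no gene passed the adjusted threshold.

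Lower glycolysis recovers ATP and ends at pyruvate. Pkm, the pyruvate kinase of most tissues other than liver and red cells, led this group at a mean of 3702 normalised counts per kilobase. It had 9777, 11194 and 6588 normalised counts in WT and 9085, 7958 and 9413 in KO. The KO values lay inside the WT range, and the log2 change was -0.03 with a 95% interval of -0.58 to 0.53 and an adjusted p of 0.972. Its sign turned without WT replicate 1, to 0.03, without WT replicate 2, to 0.13, and without KO replicate 2, to 0.04. Eno1, an enolase, had an estimate of 0.19, Pgam1, a phosphoglycerate mutase, 0.08, and Pgk1, a phosphoglycerate kinase that makes ATP, -0.28, all with overlapping groups.

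Gapdh encodes the glyceraldehyde phosphate dehydrogenase and often serves as a reference gene. It had 197, 267 and 253 normalised counts in WT and 188, 197 and 151 in KO, and the log2 change was -0.42 with an adjusted p of 0.420. At 63.4 normalised counts per kilobase it ranked near the bottom of the 33 genes, far under Aldoa. The transcript of highest mean was one with a retained intron, 3289 bases long, of which 27.2% of 50-base words occur in transcripts of 217 other genes, 208 of them annotated pseudogenes. Its most abundant coding transcript shared 82.5% of such words with 222 other genes, and had 95.9 ± 19.6 (SD, n = 3) normalised counts in WT and 70.9 ± 11.8 (SD, n = 3) in KO, with overlapping groups.

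Shared sequence also marked other glycolytic genes. The shared part was 68.0% for Pgk1, 58.1% for Eno1, 41.5% for Pgam1, 30.5% for Pkm, 19.6% for Gpi1, 17.1% for Ldha, 13.5% for Aldoa and 7.51% for Tpi1. The shared words of Gpi1 lay in 121 other genes, only 3 of them pseudogenes. No word was shared by 22 of the 33 genes, among them Slc2a1, Pfkfb4, Adm, Egln3 and Ndrg1, and the part was under 5% for Pfkfb3 and Pfkl. The sources used here do not state how reads that match several places were counted, so the levels of Gapdh, Pgk1, Eno1 and Pgam1 are uncertain. The part of shared sequence in these levels was not tested.

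**Figure D3:**
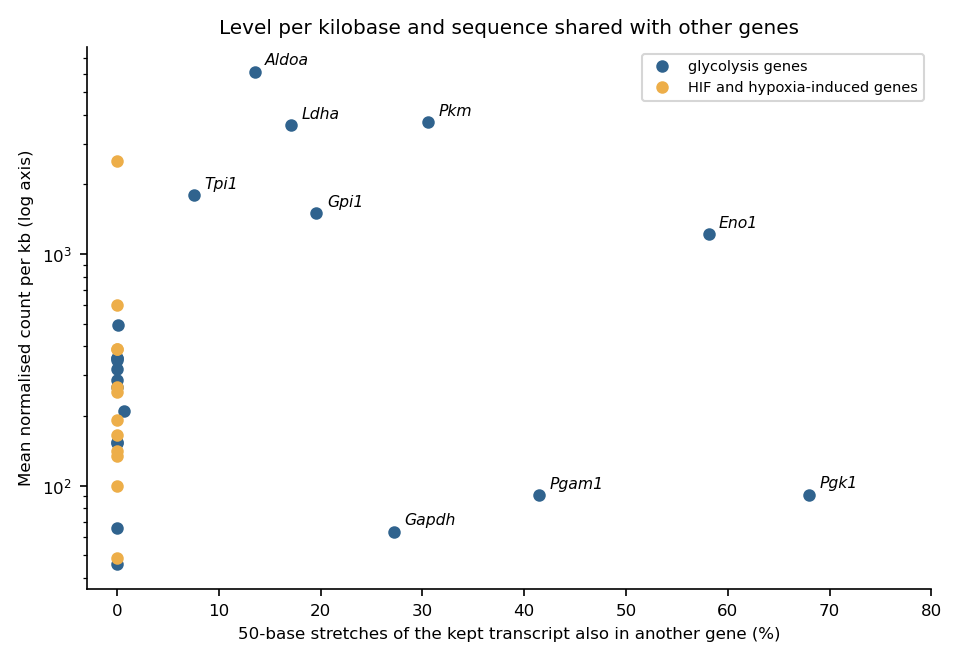
Mean normalised counts per kilobase over the 6 libraries, on a log axis, against the percent of 50-base words of each kept transcript that occur in transcripts of other genes, for the 33 genes. Gapdh, Pgk1 and Pgam1 combine levels under 100 with shared parts of 27.2%, 68.0% and 41.5%, while Aldoa, with 13.5%, reaches 6134.

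Pyruvate is reduced to lactate by lactate dehydrogenase and exported by the carrier MCT4, or enters mitochondria unless a pyruvate dehydrogenase kinase blocks that route. Ldha had 6236, 6866 and 4386 normalised counts in WT and 7196, 5469 and 7943 in KO. The groups overlapped, with a log2 change of 0.25 ± 0.24 (SE) and an adjusted p of 0.659. Pdk1, which inhibits pyruvate dehydrogenase, had 671, 669.9 and 762 in WT and 983, 866 and 856 in KO. Its KO libraries all lay above its WT libraries, and the log2 change was 0.36 ± 0.17 (SE) with an adjusted p of 0.292. Slc16a3, which encodes MCT4, had an estimate of 0.05 with an interval of -0.56 to 0.66.

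Hif1a, which encodes an oxygen-regulated alpha subunit of HIF, had 2347, 1642 and 1615 normalised counts in WT and 1573, 1894 and 2005 in KO. WT replicate 1 was the highest and KO replicate 1 the lowest, and the log2 change was -0.02 with a 95% interval of -0.47 to 0.43 and an adjusted p of 0.976. The estimate became 0.16 without WT replicate 1 and 0.08 without KO replicate 1. HIF is controlled mainly at the protein level, which was not measured. Vhl, the ubiquitin ligase subunit, had an estimate of -0.21, and Egln1, the main oxygen-sensing hydroxylase, 0.30, both with overlapping groups. Egln3, the hydroxylase most strongly induced by hypoxia, had 269.9, 380.1 and 195 in WT and 515, 391 and 897 in KO. KO replicate 2 was only just above WT replicate 2, and KO replicate 3 was far above all others. The log2 change was 1.06 ± 0.34 (SE) with an adjusted p of 0.138, and 0.72 without KO replicate 3.

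Among the other hypoxia-induced genes, Adm, which encodes the vasodilator peptide adrenomedullin, had 82.4, 119 and 46.0 normalised counts in WT and 206, 189 and 188 in KO. The KO libraries were close together and all above the WT libraries. The log2 change of 1.33 ± 0.36 (SE) was the largest of the 33, with an adjusted p of 0.0913 by limma, 0.119 by edgeR and 0.0262 by DESeq2. Ndrg1, a gene induced by stress and hypoxia, had 1440.2, 1315 and 1019 in WT and 1681, 2744 and 2239 in KO. Its groups did not overlap either, with a log2 change of 0.81 ± 0.22 (SE) and an adjusted p of 0.0943 by limma, 0.119 by edgeR and 0.0329 by DESeq2. Without KO replicate 1 the adjusted p of Ndrg1 was 0.0359, where 4.99% of all genes passed, and no other of the 33 genes passed when 1 library was left out. The summed endothelial, hepatocyte, stellate cell and cholangiocyte markers likewise did not overlap between the groups, each being higher in KO. The part of those cells in the values of Adm, Egln3 and Ndrg1 was not tested.

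The prolyl hydroxylases that mature collagen chains have alpha subunits encoded by P4ha1 and P4ha2. P4ha2 had 75.2, 104 and 61.8 in WT and 124, 126 and 162 in KO, a log2 change of 0.79 ± 0.32 (SE) with an adjusted p of 0.229. P4ha1 was far higher, at a mean of 388 normalised counts per kilobase against 48.8 for P4ha2, with 1491 ± 309 (SD, n = 3) in WT and 1646 ± 488 (SD, n = 3) in KO, and an estimate of 0.12. The transcriptional repressor gene Bhlhe40 was the most abundant of the hypoxia-induced genes per kilobase. It had 12247, 8215 and 6059 in WT and 9365, 5978 and 5214 in KO, where the groups overlapped, with a log2 change of -0.35 ± 0.31 (SE) and an adjusted p of 0.616. Ero1l, which oxidises the disulfide-forming machinery of the endoplasmic reticulum, had an estimate of 0.23, Ankrd37 had 0.07 and the histone demethylase gene Kdm3a had 0.06.

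Exons on the opposite strand covered at least 10% of the kept transcript of 4 of the 33 genes, at 20.1% for Ankrd37, 18.1% for Pfkp, 14.5% for Ndrg1 and 12.3% for Gpi1. The kit keeps strand, but the sources used here do not state whether the counting used it, so reads of the partners could have been counted with these genes.

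Averaged over its genes, the list varied from library to library within each genotype. The mean log2 value of the 33 genes relative to the WT mean was 0.02, 0.18 and -0.20 in the WT libraries and 0.19, 0.04 and 0.30 in the KO libraries, so the groups overlapped. Within WT, replicate 2 was the highest library for 22 of the 33 genes and replicate 3 the lowest for 20. Within KO, replicate 3 was the highest for 18 and replicate 2 the lowest for 18. The hypoxia genes and HIF regulators had means of 0.10, 0.19 and -0.28 in WT and 0.36, 0.26 and 0.43 in KO. Pfkfb3 and Pfkfb4 went the other way, at 0.07, -0.01 and -0.06 in WT and -0.59, -0.45 and -0.57 in KO, without overlap. WT replicate 3 and KO replicate 3 were also the lowest and the highest of the 6 libraries in summed hepatocyte markers, and the part of those cells in the means was not tested. Within each group the means also ranked as the mitochondrial share of reads did, at 16.6%, 27.5% and 6.19% in WT and 16.4%, 16.2% and 19.95% in KO, whose part was not tested either.

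Within each enzyme family the share of each isozyme in the normalised counts per kilobase compares the levels of its forms. A share is only as certain as the levels it rests on. Each family is the set of named isozymes given with it or drawn in the plot of shares. These shares were not tested, since 3 libraries against 3 cannot give an exact permutation p below 0.10. Pkm held 98.4% ± 0.693 (SD, n = 3) of the pyruvate kinase sum in WT and 93.6% ± 2.85 (SD, n = 3) in KO, with the rest in Pklr, the form of liver and red cells.

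Of the enolases, Eno1 held 40.3% ± 9.02 (SD, n = 3) in WT and 69.5% ± 14.4 (SD, n = 3) in KO. Since 58.1% of the 50-base words of Eno1 occur in other genes, its level is uncertain. The enolase shares therefore cannot show which form was the more abundant. The other main form was Eno3, known from muscle, with 2726 ± 936 (SD, n = 3) normalised counts in WT and 955 ± 739.8 (SD, n = 3) in KO, a log2 change of -1.75 with an adjusted p of 0.0943 by limma and 0.0131 by DESeq2. Without KO replicate 1 the limma values of Eno3 were -2.35 and 0.0207. Of the HIF alpha subunits, Hif1a held 71.9%, 46.3% and 59.8% in WT and 45.9%, 32.6% and 34.9% in KO. The other main subunit, Epas1, is abundant in endothelial cells and had 1070.4, 2217 and 1261 normalised counts in WT and 2162, 4582 and 4367 in KO. Its log2 change was 1.28 ± 0.34 (SE) with an adjusted p of 0.0867 by limma and 0.0134 by DESeq2, and its groups overlapped. Without KO replicate 1 the limma values of Epas1 were 1.63 and 0.0263. The summed endothelial markers reached at most 70887 in WT and at least 78424 in KO, and their part in the Epas1 values was not tested.

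**Figure D4:**
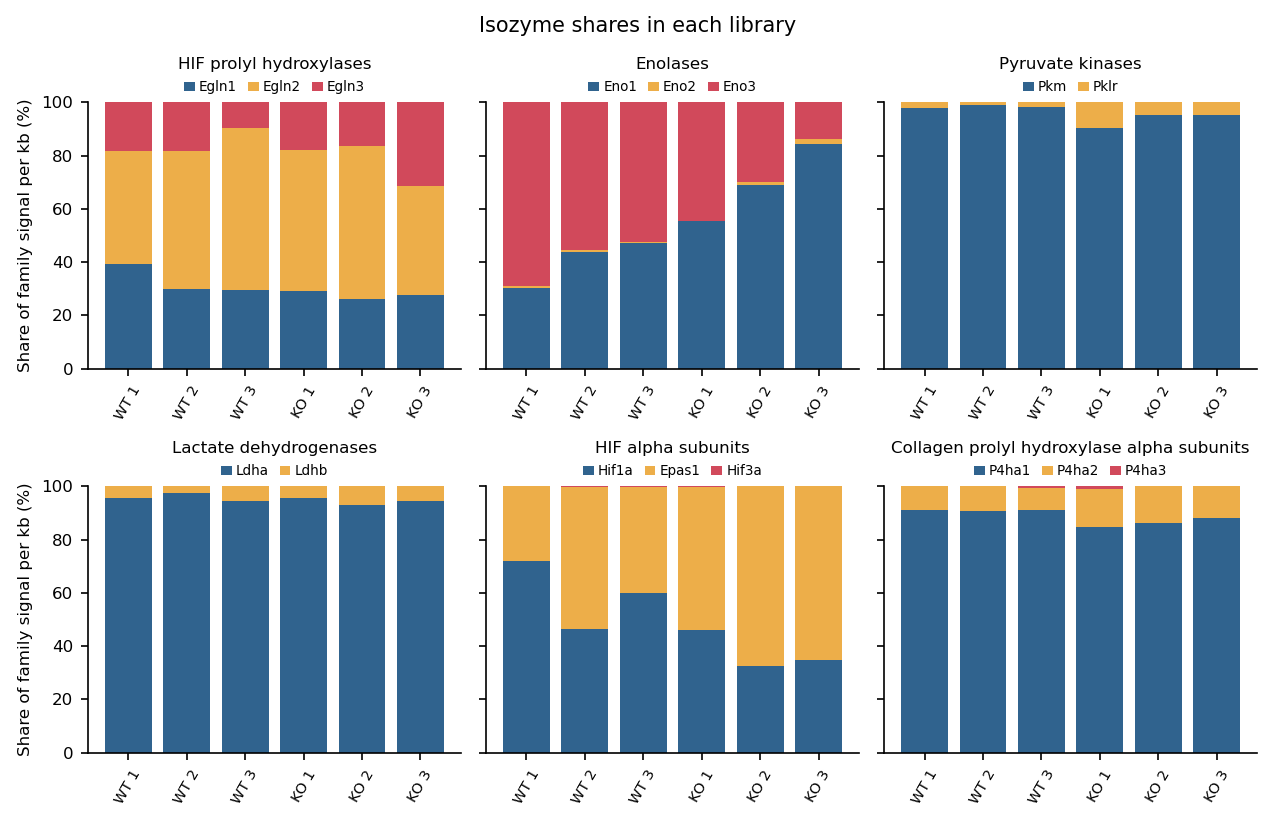
Share of each isozyme in the summed normalised counts per kilobase of its family, in percent, for each of the 6 libraries and 6 of the families. Pkm, Ldha and P4ha1 hold most of their families in all 6. Hif1a holds 46.3% or more in the WT libraries and 45.9% or less in the KO libraries, a narrow gap. The log2 change of Hif1a itself was -0.02, so its share also depends on the level of Epas1.

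Ldha held 95.8% ± 1.62 (SD, n = 3) of lactate dehydrogenase in WT and 94.4% ± 1.23 (SD, n = 3) in KO. Slc2a1 held 57.1%, 68.2% and 60.5% of the sum of Slc2a1, Slc2a2 and Slc2a3 in WT and 69.4%, 73.3% and 77.4% in KO, with WT replicate 2 just under KO replicate 1. The transporter gene Slc2a6, which that sum leaves out, had 666 normalised counts per kilobase in WT and 421 in KO, against 292 and 422 for Slc2a1. The kept transcript of Slc2a3 had a retained intron and 6253 bases, and that of Slc2a6 was annotated as a processed transcript of 2347 bases. The levels per kilobase of both genes rest on these lengths, and so does the share of Slc2a1 on that of Slc2a3. P4ha2 had a larger share of its family in every KO library than in any WT library, with 8.81% ± 0.531 (SD, n = 3) in WT and 13.4% ± 1.42 (SD, n = 3) in KO. Egln2 led the HIF hydroxylases in all 6 libraries, and Egln3 held 15.3% ± 4.85 (SD, n = 3) in WT and 21.9% ± 8.23 (SD, n = 3) in KO.

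Of 83 tested genes on 6 pathway lists, 6 passed as higher in KO and 0 as lower, where 2.09% of all genes passed as higher and 0.352% as lower. Of the 6, 5 were liver isozymes. They came from a list of 11 liver glycolysis and gluconeogenesis genes with a median log2 change of 2.01. Fbp1, the bisphosphatase of gluconeogenesis, rose from 216 ± 123 (SD, n = 3) normalised counts in WT to 1608 ± 614 (SD, n = 3) in KO, a log2 change of 2.95 with an adjusted p of 0.0147. Pcx, pyruvate carboxylase, rose by 2.01 with an adjusted p of 0.0267, and Pck1, the carboxykinase that starts gluconeogenesis from oxaloacetate, by 2.83 with 0.0351. Pklr rose by 2.03 with an adjusted p of 0.0385. It falls outside the limit of 4 named genes a list and was named after its values were seen. Pklr also overlaps Hcn3 on the opposite strand. It is expressed in red cells as well, and the summed erythroid markers were 13179.6, 33376 and 2221 in WT and 268741, 104277 and 30742 in KO.

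These 5 genes are expressed by hepatocytes. All 18 hepatocyte markers had estimates above 0, with a median of 1.73 and 6 calls, and Tat, a tyrosine-degrading enzyme, had 326 ± 107 (SD, n = 3) in WT and 2186 ± 906 (SD, n = 3) in KO. The part of hepatocyte RNA in the liver isozymes was not tested. Without KO replicate 3 none of the 5 passed, with adjusted p of 0.0722 for Fbp1, 0.116 for Pcx, 0.125 for Pck1 and 0.108 for Pklr. Pcx and Pck1 also missed the threshold without WT replicate 1, at 0.0574 and 0.123, and without WT replicate 2, at 0.0521 and 0.0605. For Pklr this was so without WT replicate 2, at 0.0673, without WT replicate 3, at 0.084, and without KO replicate 2, at 0.059.

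**Figure D5:**
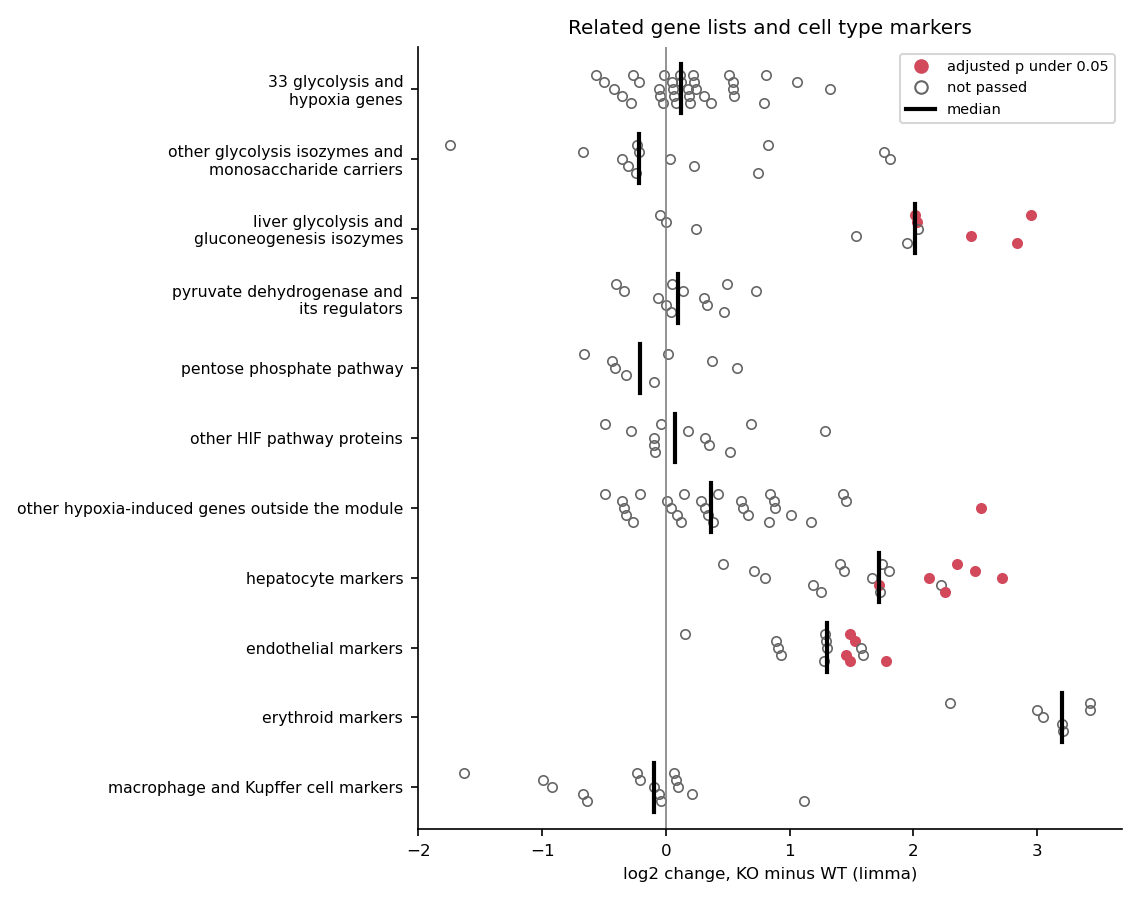
Log2 change of KO against WT for every tested gene among the 33 genes, the 6 pathway lists and 4 marker lists, with a bar at the median of each list and called genes drawn filled. The 33 genes have a median of 0.12, while the liver isozymes have a median of 2.01 and the hepatocyte markers 1.73.

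A list of 28 other hypoxia-induced genes had 22 estimates above 0, a median of 0.36 and 1 call. That gene was Ak4, a mitochondrial adenylate kinase, which rose from 32.0 ± 12.2 (SD, n = 3) to 200.3 ± 102 (SD, n = 3) normalised counts, a log2 change of 2.55 with an adjusted p of 0.0379. It missed the threshold without KO replicate 3, at 0.166, without WT replicate 1, at 0.0823, without WT replicate 3, at 0.0714, without KO replicate 2, at 0.122, and with limma-voom, at 0.0525. The remaining lists held no call by limma. They included 13 other glycolysis isozymes and sugar or lactate carriers, with a median of -0.22. Among 12 genes of pyruvate dehydrogenase and its regulators the smallest p was that of Pdk2, with a log2 change of 0.73 and an adjusted p of 0.118 by limma and 0.0498 by DESeq2. Among 8 genes of the pentose phosphate pathway, which draws glucose phosphate off to make NADPH, it was that of G6pdx, with -0.66 and 0.127 by limma and 0.0218 by DESeq2, and among 12 other HIF pathway proteins that of Epas1.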

How the data were processed

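The data are 3 WT and 3 KO RNA-seq libraries of liver cells selected for F4/80, grouped by the genotype label. Each deposited table gives a signal per Ensembl transcript, which the file headers call normalised counts. In each library 100% of values were multiples, within 0.001, of the smallest one above 0, that is, read counts the authors had divided by 1 factor per library, and whole reads were recovered from them. Per the submitters' processing notes, which give no roles, the tools were STAR 2.4.0k, HTSeq 0.5.3, DESeq 1.8.3, SAMtools and bcl2fastq 2.17, with build GRCm38.p4. The counting options, strand setting and read length were not given in the sources used here.

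Of 79382 transcripts, 78332 matched GENCODE M21 (GRCm38), in 23394 genes, and the transcript of highest mean was kept per gene. Genes kept by filterByExpr on the recovered reads were tested with limma 3.58.1 (trended prior, log2 of the value plus a pseudocount of 1, genotype only), two-sided, with Benjamini-Hochberg adjustment. Fold changes on this scale understate those of low genes. Alternatives were pseudocounts of 0.5 and 5, TMM factors, other low-value filters, edgeR 4.0.16 (282 calls on the recovered reads), DESeq2 1.42.0, limma-voom, a replicate block, summed transcripts and leaving out each library. The test was checked on simulated data. Promoters came from RefSeq, and 50-base words were compared exactly, on both strands, with transcripts of genes that do not overlap the gene in the genome.

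The 33 genes and all lists were chosen with earlier results of these data known. Library values were given for called genes, the 10 genes of smallest p and the most abundant gene per kilobase of each role group. From each pathway list, called genes (at most 4) or the gene of smallest p were named, and from each marker list up to 2. Isozymes given beside the shares were named in addition. Some genes that this rule took, and the shares of their families, are not reported here.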

Additional observations from a re-analysis of the deposited data

How the results depend on the processing

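None of the 33 genes passed under any setting other than DESeq2, where 3 did, and leaving out KO replicate 1, where 1 did, so that leaving out each library in turn gave 0 to 1. The median log2 change of the 33 genes stayed between 0.05 and 0.28 over the 16 settings. Of 240 results for the 15 genes that the naming rule took (Gapdh not among them), 231 kept their direction and their side of the threshold, 4 passed in addition, and 5 turned sign: Pkm to 0.03, 0.13 and 0.04 without WT replicate 1, WT replicate 2 and KO replicate 2 (-0.25 to 0.13 over the libraries left out), and Hif1a to 0.16 and 0.08 without WT replicate 1 and KO replicate 1 (-0.11 to 0.16). The count over all genes, 381, was 1409 with DESeq2, 233 with summed transcripts and 8 to 809 with 1 library left out, lowest without KO replicate 3. Pathway calls, 6, became 18 with DESeq2 and 0 to 10 with 1 library left out. Marker calls, 13, became 7 with TMM factors, 7 with edgeR, 30 with DESeq2, 5 with summed transcripts and 0 to 26 with 1 library left out. The cause of these shifts was not tested. TMM factors moved the median of all genes from 0.05 to -0.01.

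Same-numbered WT and KO libraries deviated from their group means with correlations of -0.015, 0.088 and -0.142. From so few libraries these values cannot show whether the numbers pair the samples, and no label states a pairing. With a replicate block, 0 of the 33 genes, 10 pathway genes, Epas1 (adjusted p 0.0229) and Eno3 (0.0124) among them, 24 markers and 539 of all genes passed. With 3 libraries a group, most changes of 1 log2 unit were missed in the simulated data. The changed genes there were drawn at random, and their spread may differ from that of the 33. The test cannot show that genes did not differ.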
